A study of Rattus norvegicus with 6 samples.

Results

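miR-21 was measured in rat kidney with 3 of the 5560 miRNA probes of a custom array. The probes were chosen by name, though with earlier results of these data known. One carries the rat name rno-miR-21, and the others carry the names of the bovine (bta-miR-21) and the zebrafish (dre-miR-21) sequence. Names ending in an asterisk, which mark the opposite arm of the hairpin, were left out. On the normalized log2 scale rno-miR-21 read higher on each of the 3 arrays of aristolochic acid (AA) rats than on any control array, with a mean difference of 1.56, or 2.95-fold. The bta-miR-21 probe was also higher on all 3, by 1.23, whereas the dre-miR-21 probe overlapped between the groups. None of the 3 probes passed the adjusted threshold of 0.05, and the difference of each was smallest, among the 6 leave-outs of 1 array, without AA replicate 19.

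Both groups were male Fisher 344 rats carrying the Big Blue Transgenic genotype, with a starting age of 6 weeks. By the study's account the kidneys came from different animals. The control group was untreated (replicates 13, 14 and 15). The AA group (replicates 19, 20 and 21) was dosed by gavage with the sodium salt of AA, a plant toxin and carcinogen of the kidney, at 10.0 mg/kg on 5 days of each week over 12 weeks, from an age of 6 weeks, and killed 1 day after the final dose. Total RNA was taken from pieces of whole kidney, so tubule, vessel, stroma and blood were measured together, and more cells of a type cannot be told apart from more RNA per cell. The arrays carry no measure of the injury itself.

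MicroRNAs are short RNAs cut from a hairpin precursor. They guide Argonaute proteins to messenger RNAs, and the bases near the 5′ end, called the seed, set most of the pairing with a target. miR-21 is made in many cell types, is known to be abundant in injured and fibrotic tissue and in tumours, and has been studied in the kidney as a promoter of fibrosis.

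The sequences show what each probe could bind. The targets are printed 5′ to 3′ with the seed, bases 2 to 8, in capitals.
rno-miR-21: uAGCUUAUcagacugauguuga
bta-miR-21: uAGCUUAUcagacugauguugacu
dre-miR-21: uAGCUUAUcagacugguguuggc
The rno-miR-21 target has 22 bases and is the same in human, whose name the array uses for the probe. The bta-miR-21 target, of 24 bases, is the rat sequence with 2 further bases at its 3′ end. The dre-miR-21 target, of 23 bases, differs from the rat sequence by A16G and A22G, where the rat base stands first and positions are counted from the 5′ end, and has 1 further base. All 3 share the seed, and none is independent of the others, since RNA of 1 sequence can bind to each.

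The rno-miR-21 target equals the mature sequence rno-miR-21-5p of the gene Mir21 in RefSeq. It lies on the minus strand of chr10:71902653-71902674 in the build GRCr8, within the hairpin at chr10:71902600-71902691. The hairpin has 92 bases and is shown with its mature arms in capitals, miR-21-5p first and miR-21-3p second.
Mir21 hairpin: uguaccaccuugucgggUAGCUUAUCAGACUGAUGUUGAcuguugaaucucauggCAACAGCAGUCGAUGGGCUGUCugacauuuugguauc
In that annotation Mir21 overlaps no other gene, and its nearest protein-coding neighbours are Tubd1 and Vmp1. Of 724 rat mature miRNAs in the same table, 1 has this seed, miR-21-5p itself.

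One array stood apart. miR-122, which is known as a liver miRNA, had a deposited normalized intensity of 15191 on AA replicate 20. On the other arrays it read between 8.17 (AA replicate 19) and 48.5 (control replicate 14). The other tissue miRNAs checked, rno-miR-1 and rno-miR-133a of muscle and rno-miR-124 of brain, were below an intensity of 32 on all 6 arrays. The summed intensity of 5 tubule miRNAs (miR-192, miR-194, miR-204, miR-30a and miR-10a) was 3178 on AA replicate 20 and 6349 to 7199 on the other arrays, with 4 of the 5 at or above 32 on every array and miR-204 on none. AA replicate 20 was also the dimmest array, with a mean miRNA signal of 149 above the median of the empty spots, against 263 to 484 elsewhere. Its median correlation with the other arrays over the tested probes was 0.845, against 0.943 to 0.953 for the rest. The part of these differences in the miR-21 result was not tested, and the differences are given below without it too.

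Scanner intensity came from 2 spots per probe. For rno-miR-21 the mean signal above the median of the empty spots was 4222 on control replicate 13, 2147 on 14 and 812 on 15. It was 17305 on AA replicate 19, 492 on 20 and 3838 on 21. Before any scaling the dimmest reading was that of AA replicate 20, AA replicate 21 lay within the control range and AA replicate 19 was above every other array. The brightest miR-21 spot, one of bta-miR-21 on AA replicate 19, had an intensity of 22969, against 57424 for the brightest spot of that array. The brighter rno-miR-21 spot was 1.01 to 1.58 times the dimmer, and the median of that ratio over all tested probes was 1.11 to 1.24 per array.

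After normexp background correction and quantile normalization, which gives each array the same distribution of values, the log2 signal of rno-miR-21 was 10.93 (replicate 13), 10.91 (14) and 10.13 (15) in control. In AA it was 13.55 (19), 11.18 (20) and 11.92 (21). The lowest AA array was 0.25 above the highest control array, so the groups did not overlap, but the AA arrays were more spread, at 12.22 ± 1.21 against 10.66 ± 0.46 (SD, n = 3). The difference was 1.56 with an SE (standard error) of 0.60 and a 95% interval of 0.15 to 2.97, that is 1.11-fold to 7.84-fold. It was the third largest of 180 tested rat probes and the sixth of all 1132 tested. The adjusted p in limma was 0.885, with an unadjusted p of 0.0349. An exact two-sided permutation test gave p = 0.10, the smallest that 3 against 3 allows.

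The authors' own normalized table gave values of the same order. On its linear scale, control replicate 13 read 1866, replicate 14 read 1753 and replicate 15 read 880.4. AA replicate 19 read 8544, replicate 20 read 2600 and replicate 21 read 3612. All AA arrays were again above all control arrays, with group means of 4919 ± 3180 and 1500 ± 540 (SD, n = 3), a ratio of 3.28.

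**Figure D1:**
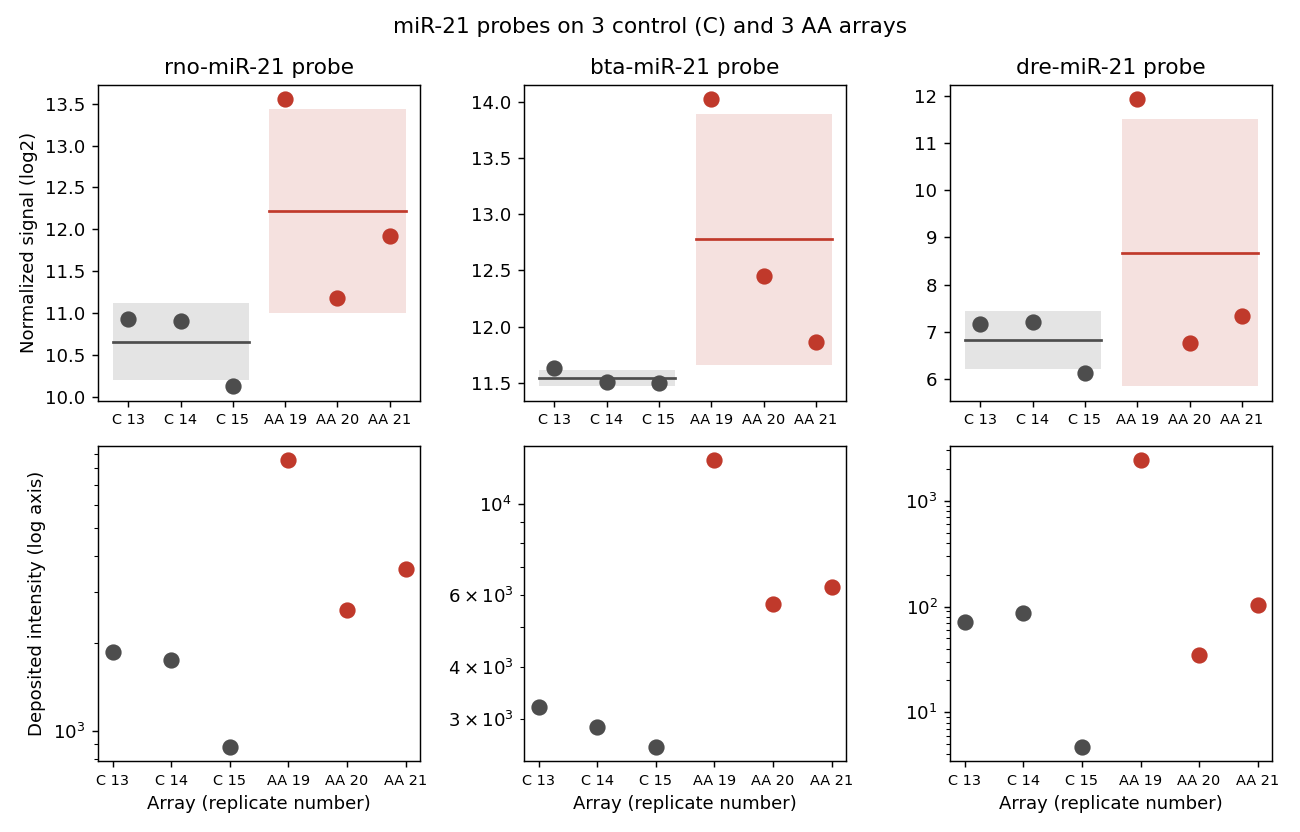
Signal of the 3 miR-21 probes on each array, as normalized log2 signal (upper row, line and band: group mean ± SD, n = 3) and as deposited intensity on a log axis (lower row). In all 6 panels AA replicate 19 is the highest array, and for dre-miR-21 AA replicate 20 lies among the control arrays.

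The bta-miR-21 probe, with the longer target, had a normalized log2 signal of 11.63 (replicate 13), 11.50 (14) and 11.50 (15) in control. Its AA values were 14.02 (19), 12.45 (20) and 11.86 (21). The control arrays were close together, at 11.54 ± 0.07, and the AA arrays were not, at 12.78 ± 1.12 (SD, n = 3). The lowest AA array, here replicate 21, was 0.23 above the highest control array. The difference was 1.23, or 2.35-fold, with an SE of 0.53 and an interval of -0.015 to 2.48, and limma gave an adjusted p of 0.885. It was 0.61 without AA replicate 19 and 1.40 without AA replicate 20. The 2 spots on AA replicate 21 disagreed, with intensities of 1898 and 6625, the widest ratio of any miR-21 probe at 3.49, against a median of 1.14 on that array. In the deposited table the probe read 2558 to 3210 in control and 5711 to 12755 in AA, with a ratio of means of 2.87.

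The dre-miR-21 probe behaved differently. Its normalized log2 signal was 7.17 (replicate 13), 7.21 (14) and 6.12 (15) in control, and 11.92 (19), 6.76 (20) and 7.35 (21) in AA. Only AA replicate 19 stood apart, and AA replicate 20 was below a pair of control arrays. The difference of 1.84 had an SE of 1.26 and an interval of -1.12 to 4.80. The limma adjusted p was 0.885, and the exact two-sided permutation p was 0.40 for 3 against 3. Without AA replicate 19 the difference was 0.22, and without AA replicate 20 it was 2.80. On control replicate 15 the probe was not well above background, a limit set at 3 robust SDs over the median of the empty spots. In the deposited table it was 2419 on AA replicate 19 and 4.70 to 103 on the other 5 arrays.

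The ratio of dre-miR-21 to rno-miR-21 was not the same on all arrays. In the deposited table it was 0.283 on AA replicate 19 and 0.0053 to 0.0497 on the other 5 arrays. These low ratios are loose, since dre-miR-21 was not well above background on control replicate 15 and read 92.7 against a limit of 89.3 on AA replicate 20. Among 267 pairs of a tested rat probe and another species' probe with 1 or 2 mismatches in the target, the normalized log2 difference on AA replicate 19 minus the median of the other arrays had a median of 0.06 and quartiles of -0.12 and 0.23. The miR-21 pair had the highest value, 2.37. Such pairs share probes, some are near background, and they are given as a description. The change of bta-miR-21 between control and AA minus that of rno-miR-21 was -0.32. For dre-miR-21 it was 0.28 minus rno-miR-21 and 0.61 minus bta-miR-21. These values were -0.68, 0.72 and 1.40 without AA replicate 20, and -0.28, -0.67 and -0.39 without AA replicate 19, so the sign of both dre-miR-21 values turned on AA replicate 19. Without control replicate 15 or AA replicate 21, bta-miR-21 minus rno-miR-21 was -0.08 or -0.02. None of these 3 comparisons had an exact two-sided permutation p under 0.40 with n = 3 per group, and all were 1 after Benjamini-Hochberg adjustment.

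Across the whole array, 2 of 1132 tested probes, or 0.177%, passed the adjusted threshold in limma, both for miR-34a, and 0 of the 3 miR-21 probes did. At an unadjusted p under 0.05, 1 of the 3 was higher in AA, against 13 probes in all, or 1.15%, and 0 of the 3 were lower. In either direction 56 probes, or 4.95%, had such a p. The share of these 56 that were higher depended on the scaling, being 13 of 56 here, 22 of 70 under cyclic loess, 13 of 29 under median scaling, 9 of 32 under mean scaling and 2 of 5 without normalization. It depended most on AA replicate 20, without which 60 of 92 were higher. The control and AA arrays did not overlap, with AA higher, for 2 of the 3, against 50 probes in all, or 4.42%. All 3 differed by over 1 on the log2 scale, against 20 probes, or 1.77%. Without AA replicate 20 these counts were 1 of 3 at an unadjusted p under 0.05, against 5.3% of all probes, 3 of 3 without overlap, against 17.8%, and 3 of 3 over 1, against 1.68%. Without AA replicate 19 they were 0 of 3, against 3.53%, 2 of 3, against 12.4%, and 0 of 3, against 4.68%. With 3 probes of 1 miRNA, these shares count a single RNA more than once.

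The difference depended on how the arrays were scaled, and AA replicate 20 was where the scalings parted. Under cyclic loess and in the deposited values, all 3 AA arrays stayed above the control arrays for rno-miR-21, with differences of 1.36 and 1.60. Scaling each array to the median of the tested probes put AA replicate 20 at -0.72 relative to the control mean, against -0.71 for control replicate 15, and gave a difference of 1.14. Scaling to the mean miRNA signal put it at -0.71 and gave 1.05. Without normalization AA replicate 20 was below every control array, at -1.89, and the difference was 0.72. AA replicates 19 and 21 were above every control array under all of these scalings except the last, where AA replicate 21, at 0.95, was below control replicate 13, at 1.10.

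**Figure D2:**
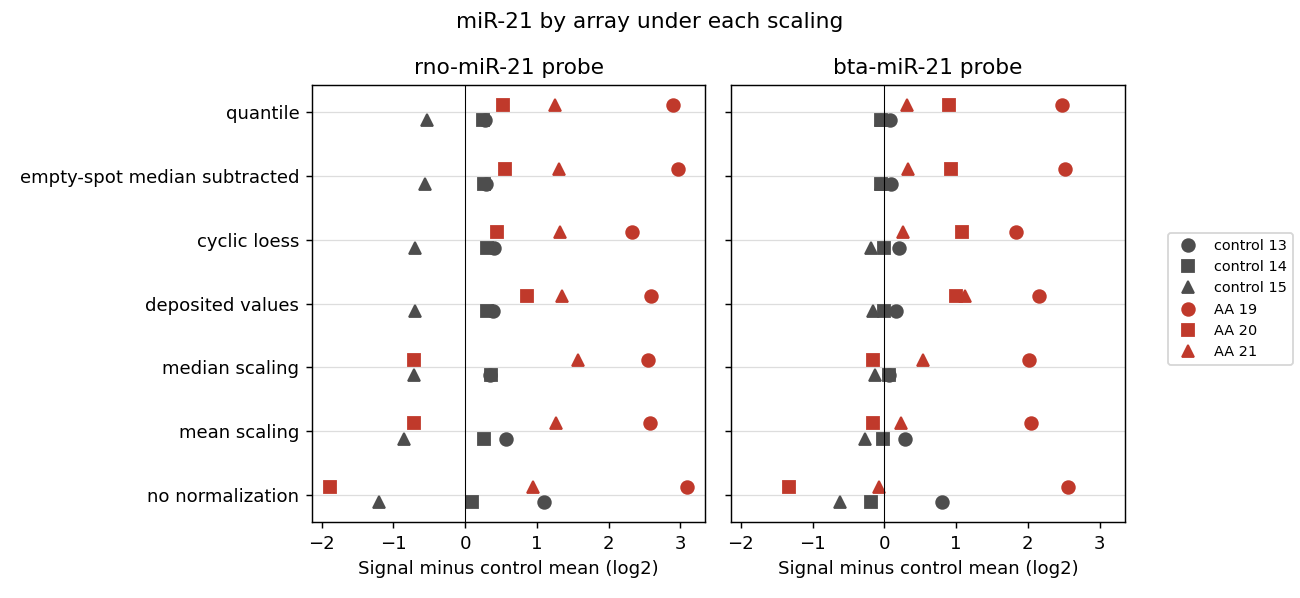
Signal of rno-miR-21 and bta-miR-21 on each array minus the mean of the control arrays, on the log2 scale, under each of 7 scalings (rows). For rno-miR-21, AA replicate 20 (red square) lies at 0.45 to 0.87 under the upper 4 scalings and at -0.72, -0.71 and -1.89 under the lower 3.

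Leaving out AA replicate 20 raised the difference of rno-miR-21 to 2.08, with an SE of 0.52 (limma, unadjusted p = 0.00615 and adjusted p = 0.356). When the 5 other arrays were also normalized by themselves, it was 1.95, with a limma adjusted p of 0.322. AA replicate 20 is the array on which miR-122 was high, and the part of that in the difference was not tested. Leaving out AA replicate 19 lowered it to 0.89, with an SE of 0.40 (limma adjusted p = 0.521). Over 20 alternatives the difference stayed above 0 each time, from 0.72 to 2.08, and the adjusted p ran from 0.0679, with array quality weights, to 0.999, under mean scaling. It passed the adjusted threshold in 0 of the 20 and an unadjusted 0.05 in 10.

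**Figure D3:**
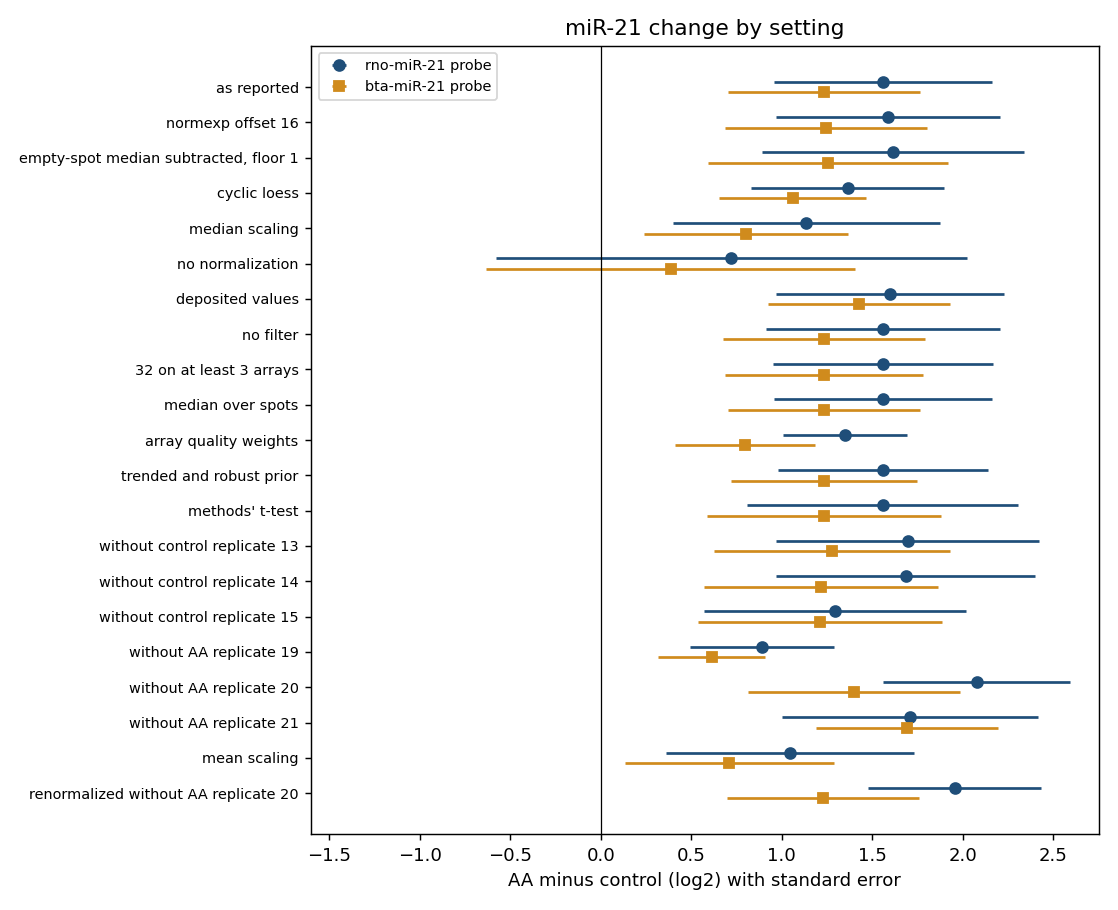
Difference between AA and control for rno-miR-21 (circles) and bta-miR-21 (squares) under each setting, on the log2 scale, with standard error bars. All points are above 0, and the lowest are those without normalization, at 0.72 and 0.39.

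The opposite arm of the hairpin stayed at background. Its 4 probes follow, with bases 2 to 8 in capitals, and the first equals rat miR-21-3p.
mmu-miR-21* and rno-miR-21*: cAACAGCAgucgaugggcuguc
bta-miR-21*: aACAGCAGucgaugggcugucu
hsa-miR-21*: cAACACCAgucgaugggcugu
tgu-miR-21*: aACAACAGucgguaggcugucu
None was well above background on any of the 6 arrays. The deposited intensity of the rat probe ran from 3.02 to 6.97 in control and from 0.015 to 3.74 in AA, under the filter of 32. These probes were thus outside the tested set, and a difference in this arm was not detectable on these arrays.

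The array held 3 other probes with the seed of miR-21, all of miR-590, a miRNA that otherwise has an unlike sequence and no rat name here.
hsa-miR-590-5p: gAGCUUAUucauaaaagugcag
eca-miR-590-5p: gAGCUUAUucauaaaaguacag
oan-miR-590*: gAGCUUAUccauaaaaguacag
They were not well above background on any of the 6 arrays either, with deposited intensities of at most 5.02. Signal was thus seen on the miR-21 probes alone among those that share the seed.

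miR-21 was set beside other miRNAs known from kidney injury and fibrosis. Of 11 such miRNAs with a rat probe, 7 were tested, with a median difference of 0.72 against -0.05 over all 1132 tested probes. One, rno-miR-34a, a p53-induced miRNA, passed the adjusted threshold, at 2.58 with an SE of 0.25 (limma adjusted p = 0.00864). That call was lost under cyclic loess, under median or mean scaling and without normalization. It was also lost on leaving out control replicate 13, 14 or 15 or AA replicate 19 or 21. In those leave-outs the difference was 2.48 to 2.60, with limma adjusted p-values of 0.0579 to 0.116. At an unadjusted p under 0.05, 3 were higher and 1 lower, against 1.15% and 3.8% of all probes. The 3 were rno-miR-34a and, from a shared locus known from fibroblasts, rno-miR-199a-3p (0.74, SE 0.24) and rno-miR-214 (0.72, SE 0.30). The other arm of miR-199a, rno-miR-199a-5p, was at 0.43 (SE 0.34) and was not among them. On AA replicate 20 it read 6.51, against 6.71 to 6.75 in control. The lower one was rno-miR-146a, a brake on inflammatory signalling, at -0.78 (SE 0.25). For rno-miR-199a-3p the control arrays read 8.90, 9.11 and 9.09 and the AA arrays 9.74, 9.63 and 9.96. On this probe the groups did not overlap and AA replicate 20 was not apart. Other species' probes near this target parted on AA replicate 20. Relative to the rat probe, cfa-miR-199 (0 mismatches) read -2.90 there and -0.34 to 0.04 elsewhere. For ppy-miR-199b-3p (1 mismatch) it was -3.35 against -2.39 to -1.35, and for eca-miR-199a-3p (2 mismatches) 0.22 against 0.20 to 0.41. Relative to rno-miR-214, hsa-miR-214 (0 mismatches) read -0.15 to -0.05 in control and -0.48 to -0.37 in AA. The difference between the groups was thus smaller on hsa-miR-214 than on rno-miR-214. For rno-miR-146a the control arrays read 10.82, 10.99 and 10.72 and the AA arrays 10.25, 9.96 and 9.98. These did not overlap either, as for 63 probes with AA lower, or 5.57%. Without AA replicate 20 the values were 2.72 for rno-miR-34a, 0.81 for rno-miR-199a-3p, 0.72 for rno-miR-214 and -0.73 for rno-miR-146a. The median of the 7 was then 0.78, and 5 were higher at an unadjusted p under 0.05, against 5.3% of all probes. Added were rno-miR-132 (0.78) and rno-miR-199a-5p (0.76). Without AA replicate 19 the median of the 7 was 0.40.

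Of 14 miRNAs known as epithelial or antifibrotic, 11 were tested and 0 passed in limma at an adjusted or at an unadjusted p under 0.05. Their median difference was -0.15 with 3 of 11 above 0, but this rested on AA replicate 20, and without that array it was 0.33 with 10 of 11 above 0. The 3 above 0 on all arrays were members of the miR-200 family of epithelial cells, rno-miR-200a, rno-miR-200b and rno-miR-200c, at 0.58, 0.32 and 0.39. Without AA replicate 20 they were at 0.51, 0.34 and 0.34. The miR-30 family, which is abundant in the nephron, read from -0.65 (rno-miR-30b-5p) to -0.15 (rno-miR-30d). AA replicate 20 was the lowest array for each of its 5 tested members, and without it the sign of all 5 turned, to between 0.05 (rno-miR-30e) and 0.43 (rno-miR-30c). At an unadjusted p under 0.05, 1 of the 11 was higher without AA replicate 20 (rno-miR-29a, 0.57), against 5.3% of all probes. Without AA replicate 19 it was also 1 (rno-miR-200a, 0.76), against 3.53% of all probes.

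**Figure D4:**
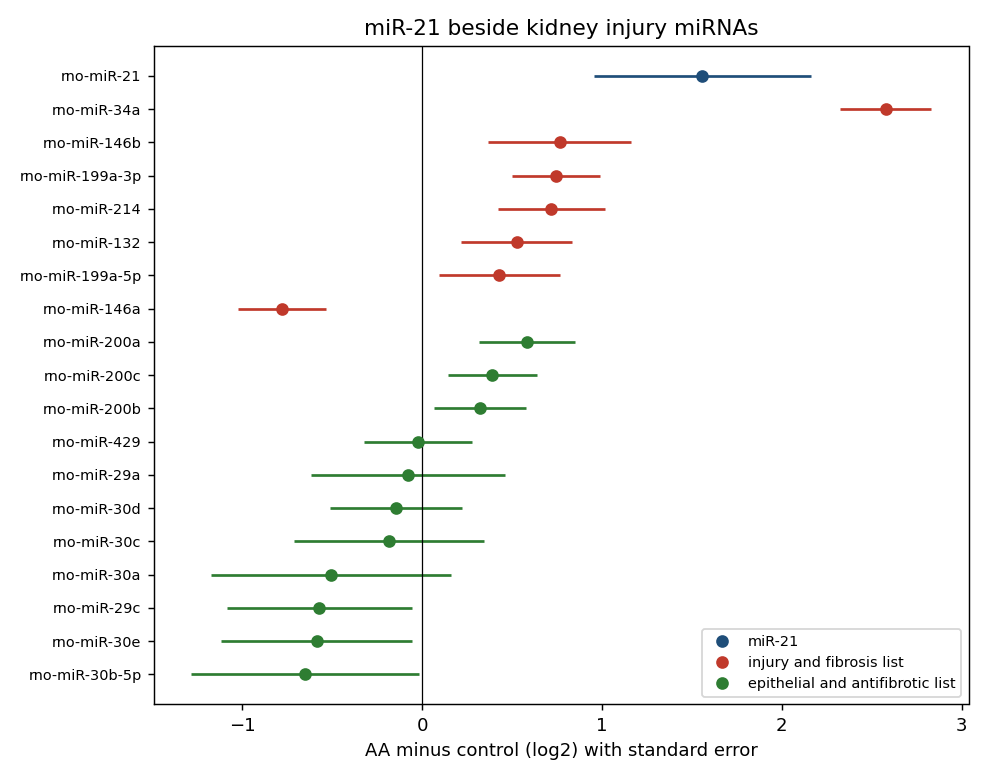
Difference between AA and control, on the log2 scale with standard errors, of rno-miR-21, of 7 miRNAs of kidney injury and fibrosis and of 11 epithelial or antifibrotic miRNAs. The miR-21 value, 1.56, lies between that of rno-miR-34a, 2.58, and those of the other miRNAs, which are all under 0.80. The negative values of the miR-30 family turn positive without AA replicate 20.

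Markers of the kidney's cell types are given beside these values. All 4 tested tubule miRNAs were below 0, with a median difference of -0.39, and without AA replicate 20 the median was 0.13 with 2 of 4 below 0. The one of the 4 with an unadjusted p under 0.05 in limma was rno-miR-194, lower in AA as were 3.8% of all probes. It was at -0.82, with a limma adjusted p of 0.885. It read 9.73, 9.40 and 9.91 on the control arrays and 9.15, 8.25 and 9.18 on the AA arrays. The groups did not overlap, as for 5.57% of all probes with AA lower. Without AA replicate 20 the difference of rno-miR-194 was -0.52. The 4 miRNAs of fibroblasts and smooth muscle (miR-143, miR-145, miR-199a-3p and miR-214) summed to 2481 to 3752 in control and 3385 to 4862 in AA in the deposited table, all 4 being at or above 32 on every array. They did not differ alike. Beside the values of miR-199a-3p and miR-214 above, rno-miR-143 was at 0.06 (SE 0.36) and rno-miR-145 at 0.08 (SE 0.48). Both of the latter were below 0 without control replicate 13, control replicate 14 or AA replicate 21. Of the leukocyte miRNAs, miR-150 was at or above 32 on every array, miR-223, miR-142-3p and miR-142-5p on none, and miR-155 had no probe with a rat name. Their sum was 323 to 525 in control and 516 to 576 in AA. Other species' miR-155 probes, looked up after values were seen, differed by 1.46 (mmu-miR-155, SE 0.40), 0.51 (hsa-miR-155, SE 0.31) and 0.23 (dre-miR-155, SE 0.28). Their unadjusted p-values in limma were 0.00733, 0.137 and 0.434, and the adjusted ones 0.832, 0.885 and 0.885. The endothelial miR-126 read 1210 to 1437 in control and 602 to 1646 in AA, and the red blood cell miRNAs miR-451 and miR-144 summed to 51.3 to 66.3 and 8.36 to 75.7. The part of these markers in the miR-21 difference was not tested.

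The rat probes whose values followed rno-miR-21 most closely over the 6 arrays were those of rno-miR-132 (Pearson's r = 0.93), rno-miR-322 (0.93), rno-miR-146b (0.93), rno-miR-187 (0.92) and rno-miR-186 (0.91), out of 179 compared, whose median r was 0.17. All 5 were highest on AA replicate 19. Without that array r was 0.49 to 0.80 for the 5 probes, and without AA replicate 20 it was 0.92 to 0.99. rno-miR-132 read 6.17 to 6.26 in control and 7.20, 6.24 and 6.81 in AA replicates 19, 20 and 21, so AA replicate 20 was among the control arrays. rno-miR-187 read 6.24 to 6.38 in control and 6.61 to 7.04 in AA, without overlap, as for 4.42% of all tested probes. It was picked for its likeness to rno-miR-21, which did not overlap either, so this adds no separate result. Relative to rno-miR-187, mdo-miR-187 (0 mismatches) read -0.56 on AA replicate 20 and -0.10 to 0.08 elsewhere. For oan-miR-187 (1 mismatch) it was -0.19 against -0.27 to 0.08. The hsa-miR-146b-5p probe (0 mismatches) minus rno-miR-146b was -0.09 to 0.50 in control and -1.42 to -0.18 in AA. Against their rat probes, cfa-miR-132 and ggo-miR-186 (0 mismatches) read -0.02 to 0.24 and -0.33 to 0.24. The lowest r were those of rno-miR-667 (-0.69), rno-let-7d* (-0.64) and rno-miR-206 (-0.61). Without AA replicate 19 they were -0.85, -0.50 and 0.55, so that of rno-miR-206 changed sign, and without AA replicate 20 they were -0.70, -0.76 and -0.62. These values describe 6 arrays that share their scaling, and carry no test.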

How the data were processed

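Kidney miRNA was measured on 6 one-colour (Cy3) arrays, 3 control and 3 AA, grouped by the sample labels. Per the file headers and the methods, the deposited scanner files hold the median pixel intensity of 15066 spots, read with a GenePix scanner and Array-Pro, with no background correction. The authors also deposited normalized intensity, made by background subtraction and a LOWESS filter. Its scale is linear, and its LOWESS reference is not given in the sources used here. It was used for the filter and as an alternative.

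Intensity was corrected with normexp (offset 50), put on the log2 scale, quantile-normalized and averaged over spots. A probe was tested if it reached 32 in the deposited table on at least 1 array, which left 1132 of 5560 probes. One probe outside that table was filtered on scanner signal. Groups were compared with lmFit and eBayes in limma 3.58.1 (R 4.3.3), with Benjamini-Hochberg adjustment over all tested probes. Single values were also compared by an exact permutation test. Alternatives changed the background correction, normalization, filter, spot averaging, prior, array weights, test and arrays used. The code was tested on simulated data. The number of arrays limits the precision.

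The miR-21 probes, the lists and the tests were chosen with earlier results of these data known. Named were every miR-21, passenger-strand and seed-sharing probe, list members at an unadjusted p under 0.05 where 5 or fewer, and the 5 rat probes with the highest and the 3 with the lowest r to rno-miR-21. Other list members and the miR-155 probes were named after their values were seen. So were the other species' probes of miR-132, miR-146b, miR-186, miR-187, miR-199 and miR-214.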

Additional observations from a re-analysis of the deposited data

How the results depend on the processing

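The log2 difference of rno-miR-21 kept its sign and stayed short of the adjusted threshold under all 20 alternatives. They changed the background correction, the normalization, the filter, the averaging of spots, the test, the prior, the weights or the arrays used, and mean scaling and renormalization without AA replicate 20 were chosen after seeing the data, as were the leave-outs of list medians, probe comparisons and background shares. The same held for bta-miR-21 (0.39 to 1.69) and dre-miR-21 (0.22 to 2.99). The number of miR-21 probes past the threshold was 0 under each in limma and in the methods' t-test, where rno-miR-21 had an unadjusted p of 0.106. Leaving out single replicates moved rno-miR-21 between 0.89 and 2.08. The median difference of all tested probes was -0.32 without normalization and 0.09 under median scaling, and rno-miR-21 lay 1.04 above it in both. The number of injury and fibrosis or epithelial miRNAs past the threshold was 1 as reported, rno-miR-34a. With cyclic loess, median scaling, mean scaling or no normalization 0 passed. The count was 4 with array quality weights and 0 to 1 over the leave-outs, being 1 without AA replicate 20 and 0 without any other single array. Over all tested probes 2 passed as reported, 0 under those 4 scalings, 44 with array quality weights, 3 without AA replicate 20 and 0 without any other single array. The cause was not tested. With no filter, the passenger-arm and miR-590 probes had limma adjusted p-values of 0.654 to 0.726 and, for oan-miR-590*, 0.844. No paired analysis was possible because the groups share no replicate number. The labels name no batch or slide. Signal over background limits dre-miR-21, which also rests on AA replicate 19.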
